A study of Mus musculus with 12 samples.

Results

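The PHLDA and Tribbles genes are small families of signalling regulators, and they were taken here by symbol: Phlda1, Phlda2, Phlda3, Trib1, Trib2 and Trib3. All 6 were among the 25897 symbols of the deposited count table, and all 6 had enough counts to be tested among 14185 tested genes. They were measured in E14tg2a, an embryonic stem cell line of mouse (129SV), carrying cRAF-ERT2. This fusion puts RAF under a receptor domain that binds 4-hydroxytamoxifen (4OHT), and 4OHT is used to switch on RAF and with it ERK. There were 12 libraries, 1 per clone (a, b or c) in each of 4 groups: 0 h (untreated), and 1 h, 2 h and 4 h in 4OHT at 250 nM. Each group thus holds 3 clones, and where the clones are not independent lines the p-values measure only the spread between these samples.

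All 4 groups shared the same culture history. Cells grew in serum with LIF and 2 µM Chir99021, were held for 24 h before treatment in serum with LIF and 250 nM PD173074, an FGF receptor inhibitor, and received 5 mM ethynyl uridine for the last 15 min. Untreated cells had therefore also been under the inhibitor. No vehicle group is among these samples, so 4OHT time and carrier cannot be told apart. The promoter of the construct is not given in the sources used here. The treatment protocol in the labels names only 0 h and 2 h, while the titles and the series design name all 4 times.

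PHLDA proteins are small proteins built around a pleckstrin homology-like domain, a fold that in many proteins binds membrane phosphoinositides. PHLDA3 competes with the kinase AKT for these lipids and is a p53 target, PHLDA2 is the product of an imprinted gene that restrains placental growth, and PHLDA1 is known as a growth factor-responsive gene. Tribbles proteins are pseudokinases. TRIB1 and TRIB2 bring substrates such as the transcription factor C/EBPα to the ubiquitin ligase COP1, and TRIB3 binds AKT and is a target of the stress factors ATF4 and CHOP.

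Positions are from GENCODE M21 on GRCm38, the assembly named mm10 in the submitters' notes, counted from 1. Phlda1 lies at chr10:111506286-111508645 on the plus strand, Phlda2 at chr7:143501545-143503150 on the minus strand and Phlda3 at chr1:135766119-135769136 on the plus strand. Trib1 lies at chr15:59648350-59657099 on the plus strand, Trib2 at chr12:15791727-15816922 on the minus strand and Trib3 at chr2:152337422-152344032 on the minus strand. All 6 are protein-coding, and reads were counted per gene. Exons of Phlda1 share 727 bases with Gm28592, a long intergenic non-coding RNA gene on the other strand. The strand setting of the counting is not given in the sources used here, so the Phlda1 counts could include reads of Gm28592. The exons of the other 5 genes overlapped no other annotated gene.

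RefSeq promoter windows (GRCm38.p6) matched 4 of the 6 genes, namely Phlda2, Phlda3, Trib2 and Trib3. The 250 bases before the start were searched on both strands for 8 motifs given by letters. These were the TATA box spelled TATAAA, the GC box spelled GGGCGG, the box named after its letters CCAAT, the AP-1 motif TGANTCA, the core TGACG of the cAMP response element, the ETS motif CCGGAAG, the composite ATF4 motif TGATGNAAN, and the C/EBP motif TGCAAT. Also searched, by name, were the CArG box of SRF and a single unit of the p53 element. The letters TGCAAT can lie within the composite ATF4 motif. Of 32536 distinct upstream stretches of this length, 12.3% held a TATA box, 33.0% a GC box, 33.8% CCAAT, 17.9% TGACG and 7.27% TGCAAT. The AP-1 motif was in 6.73%, the ETS motif in 6.95%, the ATF4 motif in 3.38%, the CArG box in 1.48% and the p53 unit in 7.12%. None of these last 5 motifs was in the stretches of Phlda2, Phlda3, Trib2 or Trib3, which says only that these letters are not in these windows. Phlda3 and Trib3 are shown as the pair of genes below whose mean was lowest at 4 h, on their coding strands at chr1:135765835-135766084 (plus) and chr2:152344061-152344310 (minus). Capitals mark matches to the motifs searched.
Phlda3: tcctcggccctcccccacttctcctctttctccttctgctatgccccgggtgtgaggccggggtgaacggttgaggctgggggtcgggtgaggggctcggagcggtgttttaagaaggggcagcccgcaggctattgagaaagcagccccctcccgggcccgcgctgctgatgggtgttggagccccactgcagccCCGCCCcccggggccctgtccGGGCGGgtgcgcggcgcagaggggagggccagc
Trib3: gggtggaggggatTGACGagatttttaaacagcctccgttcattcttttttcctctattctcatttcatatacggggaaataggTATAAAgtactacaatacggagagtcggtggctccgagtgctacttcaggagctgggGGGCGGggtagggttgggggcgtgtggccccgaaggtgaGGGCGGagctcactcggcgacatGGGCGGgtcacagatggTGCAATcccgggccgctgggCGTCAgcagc

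The Phlda3 stretch, 71.2% G or C, held 2 GC boxes and no other motif of the set. The Trib3 stretch, 57.2% G or C, held 3 GC boxes, a TATA box starting 166 bases before the start, TGACG at 2 places (237 and 10 bases before the start, the nearer on the other strand) and TGCAAT 30 bases before the start. Phlda2, which had the highest mean level per exon length of the 6 at 1, 2 and 4 h, had a TATA box 30 bases before its RefSeq start, and 30 bases around it (chr7:143502540-143502569, minus strand) are printed with that box in capitals. They lie within the GENCODE gene, in an exon of a longer Phlda2 transcript.
Phlda2: gcggggcggagtcctTATAAAgaccacgcc

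A match is a description of letters, not a bound site, and its part in the results below was not tested.

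Total counts ran from 24213641 to 31435301 per library, so that 1 count was worth 0.0318 to 0.0413 CPM (counts per 1000000 counts of the library) before scaling. Stem cell markers were present throughout, with Pou5f1 at 627 to 1171 CPM and Sox2 at 306 to 451 CPM, but not all held steady. Of 10 tested, edgeR at an adjusted p under 0.05 called 4 higher and 2 lower at 4 h (18% and 15.1% of all genes). Pou5f1, whose exons overlap a transcript of the other strand, was among the higher. Nanog was among the lower, at 243 to 315 CPM at 4 h, against 655 to 725 CPM in untreated cells. The summed CPM of 10 feeder fibroblast markers was 20.4 to 43.4 at 4 h, against 7.80 to 8.55 in untreated cells. Of these, Col1a2, which was too low to be tested, was at 0 to 0.0790 CPM at 4 h, against 0 to 0.119 CPM in untreated cells. Col1a1 was at 0.499 to 1.07 CPM at 4 h, against 0.159 to 0.450 CPM in untreated cells. Of the 4 tested markers of that list Twist1, Thy1 and Col1a1 rose and Pdgfrb fell. Primitive endoderm markers summed to 326 to 484 CPM at 4 h, against 420 to 602 in untreated cells. Of 8 tested 0 were called by edgeR at an adjusted p under 0.05, and 3 were lower with clone as a block (25.7% of all genes). Trophoblast markers summed to 60.1 to 156 CPM at 4 h, against 45.3 to 50.1 in untreated cells. Of 6 tested 4 rose, where 18% of all genes did. With the block 5 rose and 1 fell, where 26.2% and 25.7% of all genes did. The part of such cells or programmes in the results was not tested. In bulk RNA, fewer cells of a type and less RNA per cell cannot be told apart. Reads assigned to Esr1, the oestrogen receptor gene, stood at 18.2, 259.9 and 39.1 CPM at 4 h in clones a, b and c, against 9.44, 93.4 and 38.8 CPM with no 4OHT.

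Over the 4 h the genes fell into different courses. Phlda1 and Phlda2 had a higher value at each later time in all 3 clones, Trib1 was higher from 2 h, Trib2 was lowest at 2 h and highest at 4 h, and Phlda3 and Trib3 had lower means at 4 h without passing the test. By edgeR's quasi-likelihood test with Benjamini-Hochberg adjustment over all tested genes, at a threshold of 0.05, an F test over the 3 treated times called 4 of the 6, Phlda1 (adjusted p = 0.00158), Phlda2 (adjusted p = 0.00388), Trib1 (adjusted p = 3.42e-04) and Trib2 (adjusted p = 0.00561), against 27.4% of all genes tested. With clone as a replicate block Phlda3 was called too (adjusted p = 0.00731), against 56.8% of all genes. Trib3 was called in neither fit (adjusted p = 0.533, and 0.243 with the block).

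**Figure D1:**
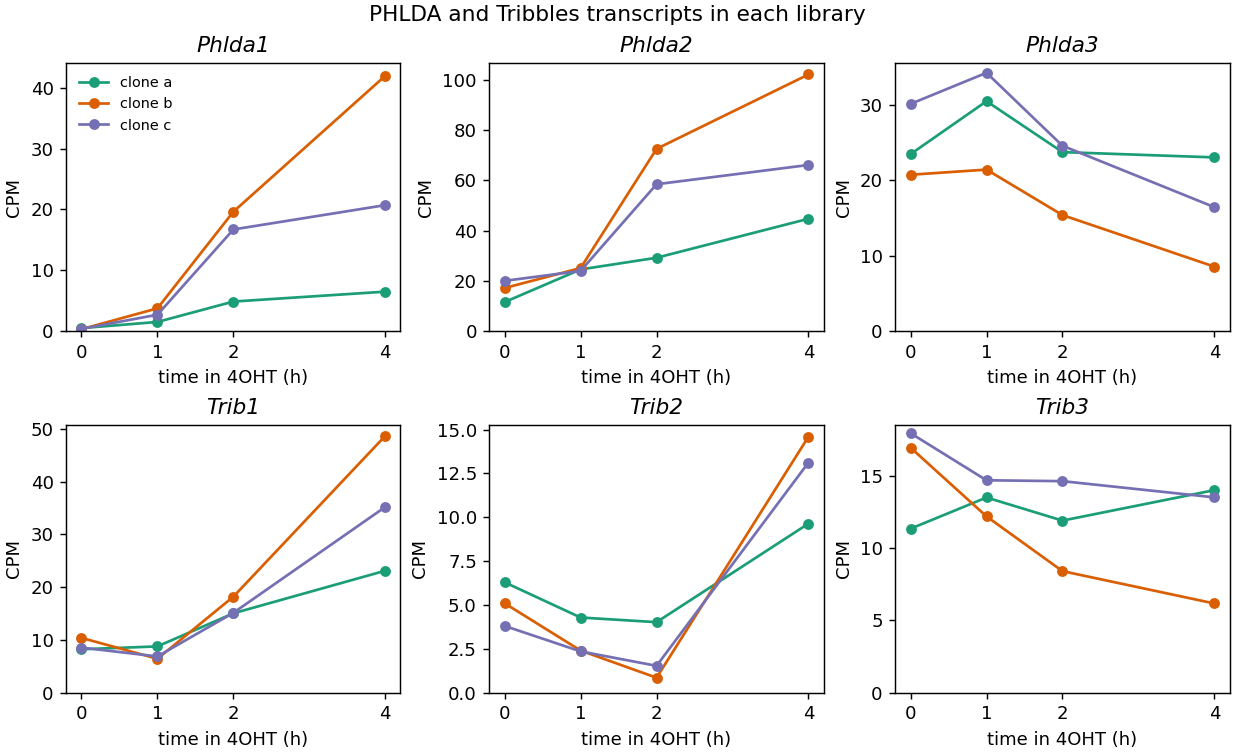
CPM (vertical axis, from 0) of each gene against time in 4OHT in hours, with untreated cells at 0 and 1 line and point per library of clones a, b and c. Phlda1, Phlda2 and Trib1 are highest at 4 h in each clone, and Trib2 is lowest at 2 h and highest at 4 h in each clone. Phlda3 is lowest at 4 h in each clone, in clone a by little, and Trib3 is lowest at 4 h in clones b and c.

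Length-scaled levels place the genes against each other. In RPKM, which is CPM per kilobase of exon (lengths from GENCODE M21), untreated cells had Phlda3 at 15.9 ± 3.1 and Phlda2 at 14.5 ± 3.84, which did not differ beyond their spread (mean ± SD, n = 3 clones each). Trib3 followed at 7.26 ± 1.67 RPKM. Trib1 at 1.45 ± 0.19 RPKM and Trib2 at 1.17 ± 0.29 RPKM overlapped, and Phlda1 was lowest at 0.18 ± 0.04 RPKM, above 8.80% of tested genes. After 4 h Phlda2 led with 63.4 ± 25.9 RPKM, above 94.6% of tested genes. Phlda1 at 10.5 ± 8.10 RPKM and Phlda3 at 10.3 ± 4.65 RPKM came next and overlapped, as did Trib1 at 5.71 ± 2.05 RPKM and Trib3 at 5.29 ± 2.07 RPKM. Trib2 had the lowest mean, 2.87 ± 0.59 RPKM, with values that overlapped those of Phlda1 and Trib3. Phlda1, lowest of the 6 in untreated cells, thus overlapped Phlda3, Trib1, Trib2 and Trib3 at 4 h.

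**Figure D2:**
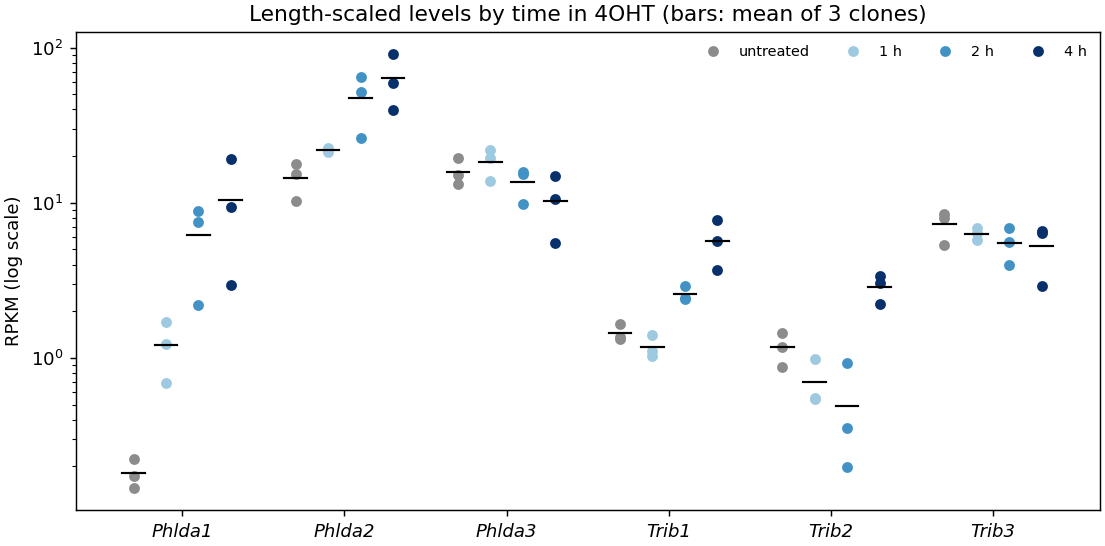
RPKM on a log scale for each gene in untreated cells and after 1, 2 and 4 h of 4OHT, with 1 point per clone and a bar at the mean of 3 clones. On the log axis Phlda1 has the widest range of group means, 10.5 at 4 h against 0.18 in untreated cells, and Phlda2 has the highest mean at 1, 2 and 4 h, with values that overlap those of Phlda3 at 1 h.

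Phlda1, a gene known to respond to growth factors, changed most. In clones a, b and c it had 0.494, 0.319 and 0.381 CPM in untreated cells (16, 8 and 11 counts), 1.51, 3.75 and 2.70 CPM at 1 h, 4.86, 19.6 and 16.7 CPM at 2 h and 6.49, 42.0 and 20.7 CPM at 4 h. Every treated library lay above every untreated one, and clone a had the lowest value at each treated time. At 2 h its log2 change against untreated cells was 5.08 ± 0.81 (SE), a 33.8-fold rise (edgeR adjusted p = 0.00577), the ninth largest of 14185. At 4 h it was 5.83 ± 0.81, a 56.7-fold rise (edgeR adjusted p = 5.61e-04). The small untreated counts make the size of these folds uncertain, and the 4 h value ran from 4.94 without clone b to 6.46 without clone a. The 2 h call was lost when clone b (adjusted p = 0.0608) or clone c (adjusted p = 0.242) was dropped, in a range over alternatives of 1.94e-09 to 0.242.

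At 1 h Phlda1 was at 2.71 ± 0.84 on the log2 scale and did not pass (edgeR adjusted p = 0.29, unadjusted p = 0.00741). With clone as a block its adjusted p was 0.0134, and over all alternatives it ran from 0.0134 to 0.822. Between 1 and 2 h the difference was 2.36 ± 0.65 (edgeR adjusted p = 0.143, or 0.00218 with the block). Between 2 and 4 h it was 0.75 ± 0.59 (edgeR adjusted p = 0.525), and −0.02 when clone b at 4 h was dropped.

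Phlda2, the imprinted gene of distal chromosome 7, started from a much higher level. In clones a, b and c it had 11.6, 17.2 and 20.03 CPM in untreated cells, 24.6, 25.1 and 24.0 CPM at 1 h, 29.2, 72.6 and 58.5 CPM at 2 h and 44.7, 102 and 66.2 CPM at 4 h. The groups did not overlap at any treated time against untreated cells, and the clones stood close together at 1 h and apart from 2 h on. It rose by 1.72 ± 0.35 on the log2 scale at 2 h, 3.29-fold (edgeR adjusted p = 0.0133), and by 2.13 ± 0.35 at 4 h, 4.38-fold (edgeR adjusted p = 0.00135). At 1 h it was at 0.60 ± 0.35 (edgeR adjusted p = 0.549). Dropping either clone b (adjusted p = 0.0582) or clone c (adjusted p = 0.0575) at 2 h ended the 2 h call, as did dropping either clone at all times (adjusted p = 0.112 and 0.251). From 1 to 2 h it differed by 1.12 ± 0.34 (edgeR adjusted p = 0.166, or 0.016 with the block), and from 2 to 4 h by 0.41 ± 0.33 (edgeR adjusted p = 0.539).

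Of 13 genes listed for the imprinted domain around Phlda2, 11 were in the table and 7 were tested. At 4 h 1 rose and 2 fell, where 18% and 15.1% of all genes did. The median log2 change was −0.27, against −0.02 over all genes. Cdkn1c, a cell cycle inhibitor imprinted like Phlda2, rose by 1.35 ± 0.31 (edgeR adjusted p = 0.00766). The tetraspanin gene Cd81 was at −0.37 ± 0.09 (edgeR adjusted p = 0.0125) and the lipid transfer protein gene Osbpl5 at −0.90 ± 0.25 (edgeR adjusted p = 0.0186). The potassium channel gene Kcnq1 was at −0.27 ± 0.11 (edgeR adjusted p = 0.0891). Exons of Cdkn1c, Cd81 and Kcnq1 overlap transcripts of the other strand.

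Phlda3, the AKT antagonist, was at 23.5, 20.7 and 30.1 CPM before 4OHT (clones a, b and c), 30.5, 21.4 and 34.3 CPM at 1 h, 23.7, 15.4 and 24.6 CPM at 2 h and 23.0, 8.55 and 16.4 CPM at 4 h. The 4 h and untreated groups overlapped through clone a, whose own log2 difference was −0.03, while clones b and c were at −1.27 and −0.87. Its log2 change at 4 h was −0.63 ± 0.32 (edgeR adjusted p = 0.146). With clone as a block the value was −0.69 ± 0.18 and was called (edgeR adjusted p = 0.00703), and when clone a at 4 h was dropped it was −0.99 (adjusted p = 0.0285). Over all alternatives the adjusted p ran from 0.00703 to 0.513. At 1 h Phlda3 was at 0.21 ± 0.31 (edgeR adjusted p = 0.867) and at 2 h at −0.22 ± 0.31 (edgeR adjusted p = 0.647).

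Other p53 targets were mixed after 4 h. Of 14 tested genes of that list 3 rose and 6 fell, where 18% and 15.1% of all genes did. Their median log2 change was −0.10. The apoptosis gene Pmaip1 rose by 2.47 ± 0.29 (edgeR adjusted p = 2.49e-04). The cyclin gene Ccng1 was at −0.71 ± 0.11 (edgeR adjusted p = 8.05e-04), Trp53inp1 at −1.22 ± 0.20 (edgeR adjusted p = 0.00128) and the receptor gene Eda2r at −0.68 ± 0.13 (edgeR adjusted p = 0.00292). At 1 h 0 of 14 were called by edgeR (0.0775% of all genes), against 4 higher with the block (5.41%).

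Trib1, a COP1 adaptor, was called from 2 h on. In clones a, b and c it had 8.24, 10.4 and 8.55 CPM in untreated cells, 8.78, 6.43 and 6.88 CPM at 1 h, 15.1, 18.2 and 15.1 CPM at 2 h and 23.1, 48.7 and 35.2 CPM at 4 h. At 1 h clones b and c lay below their untreated values and clone a above, and from 2 h all libraries lay above all untreated ones. The log2 change was −0.30 ± 0.24 at 1 h (edgeR adjusted p = 0.699), 0.83 ± 0.23 at 2 h (1.78-fold, edgeR adjusted p = 0.0356) and 1.98 ± 0.24 at 4 h (3.94-fold, edgeR adjusted p = 2.73e-04). The 4 h call held in every alternative run, with log2 values of 1.69 to 2.21. The 2 h call ended when any of the 3 untreated libraries was dropped (adjusted p = 0.101, 0.0663 and 0.0901 for a, b and c), when clone b or c was dropped at 2 h (0.13 and 0.0946) or at all times (0.114 and 0.33), and in limma-voom (0.0623). Its adjusted p ran from 0.00629 to 0.33 over all alternatives.

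Between times Trib1 went on rising. It differed by 1.15 ± 0.23 on the log2 scale between 4 h and 2 h (2.21-fold, edgeR adjusted p = 0.02), higher in 3 of 3 clones. That call ended when any of the 2 h libraries was dropped (adjusted p = 0.0542, 0.0566 and 0.0756 for a, b and c), when clone b or c was dropped at 4 h (0.0597 and 0.0697) or at all times (0.163 and 0.404), and in a fit of these groups alone (0.116). Its adjusted p ran from 1.59e-04 to 0.404. Between 2 h and 1 h it differed by 1.13 ± 0.24 (edgeR adjusted p = 0.0811, or 0.0102 with the block).

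Trib2, the other COP1 adaptor that acts on C/EBPα, was called between 4 h and 2 h and between 4 h and untreated cells. In clones a, b and c it had 6.29, 5.10 and 3.81 CPM in untreated cells, 4.29, 2.40 and 2.35 CPM at 1 h, 4.02, 0.855 and 1.53 CPM at 2 h and 9.64, 14.6 and 13.1 CPM at 4 h. Each clone was lowest at 2 h and highest at 4 h, the 4 h libraries lay above all other Trib2 values, and the 2 h and untreated groups overlapped because clone a at 2 h exceeded clone c untreated. At 4 h it was 2.55 ± 0.46 log2 units above 2 h, 5.87-fold (edgeR adjusted p = 0.0142), higher in 3 of 3 clones and the 19th largest rise of 14185 between those times. That call ended when clone c was dropped at 2 h (adjusted p = 0.0643) or at 4 h (0.0515), when clone b (0.164) or c (0.402) was dropped at all times, and in a fit of those groups alone (0.101), in a range over alternatives of 1.61e-06 to 0.402. The log2 value was 3.54 without clone a and 2.05 without clone b.

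Against untreated cells Trib2 was at −0.75 ± 0.44 on the log2 scale at 1 h (edgeR adjusted p = 0.56) and at −1.26 ± 0.46 at 2 h (edgeR adjusted p = 0.078). The 2 h difference passed with clone as a block (−1.31 ± 0.39, adjusted p = 0.0213), in DESeq2 (adjusted p = 0.0298) and in limma-voom (adjusted p = 0.0403). It also passed when clone a was dropped at 2 h (adjusted p = 0.00681) or at all times (adjusted p = 0.00767). Over all alternatives its adjusted p ran from 0.00681 to 0.39. At 4 h Trib2 rose by 1.30 ± 0.43, 2.46-fold (edgeR adjusted p = 0.0376). This call ended when any of the 3 untreated libraries was dropped (adjusted p = 0.0594, 0.09 and 0.118 for a, b and c), when clone b or c was dropped at 4 h (0.103 and 0.0924) or at all times (0.121 and 0.293), and with library totals in place of TMM scaling (0.0512). Its log2 value stayed between 1.09 and 1.64, and its adjusted p between 0.00363 and 0.293.

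Trib3, which binds AKT, was at 11.4, 17.0 and 18.0 CPM before 4OHT (clones a, b and c), 13.5, 12.2 and 14.7 CPM at 1 h, 11.9, 8.41 and 14.6 CPM at 2 h and 14.0, 6.18 and 13.5 CPM at 4 h. Clones b and c had a lower value at each later time, clone b by more, while clone a at 4 h lay above its untreated value, and the treated and untreated groups overlapped at each time. The log2 change was −0.19 ± 0.30 at 1 h (edgeR adjusted p = 0.87), −0.40 ± 0.30 at 2 h (edgeR adjusted p = 0.357) and −0.46 ± 0.30 at 4 h (edgeR adjusted p = 0.255). In clones a, b and c the 4 h differences in log2 CPM were 0.30, −1.45 and −0.41. Trib3 passed the threshold in no comparison under any alternative run, with a lowest adjusted p of 0.101 (at 4 h).

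Genes of the stress response that is known to induce Trib3 were tested beside it. Of 15 tested genes of the ATF4 and CHOP list, 4 rose at 2 h and 0 fell (0 with the block too), where 9.56% and 6.64% of all genes did. Their median log2 change was 0.18, against −0.02 over all genes. Atf4 itself rose by 0.61 ± 0.07 at 2 h (edgeR adjusted p = 0.00161) and by 0.33 ± 0.07 at 4 h (edgeR adjusted p = 0.00549). At 4 h 2 of the 15 rose and 1 fell, where 18% and 15.1% of all genes did. With the block 4 rose and 2 fell, where 26.2% and 25.7% did. Phgdh, an enzyme of serine synthesis, was at 0.51 ± 0.10 at 4 h (edgeR adjusted p = 0.00318). Ddit4, an inhibitor of mTORC1 signalling, was at −0.78 ± 0.21 (edgeR adjusted p = 0.0166). Cebpg, whose exons overlap transcripts of both strands, was at −0.24 ± 0.10 (edgeR adjusted p = 0.089).

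**Figure D3:**
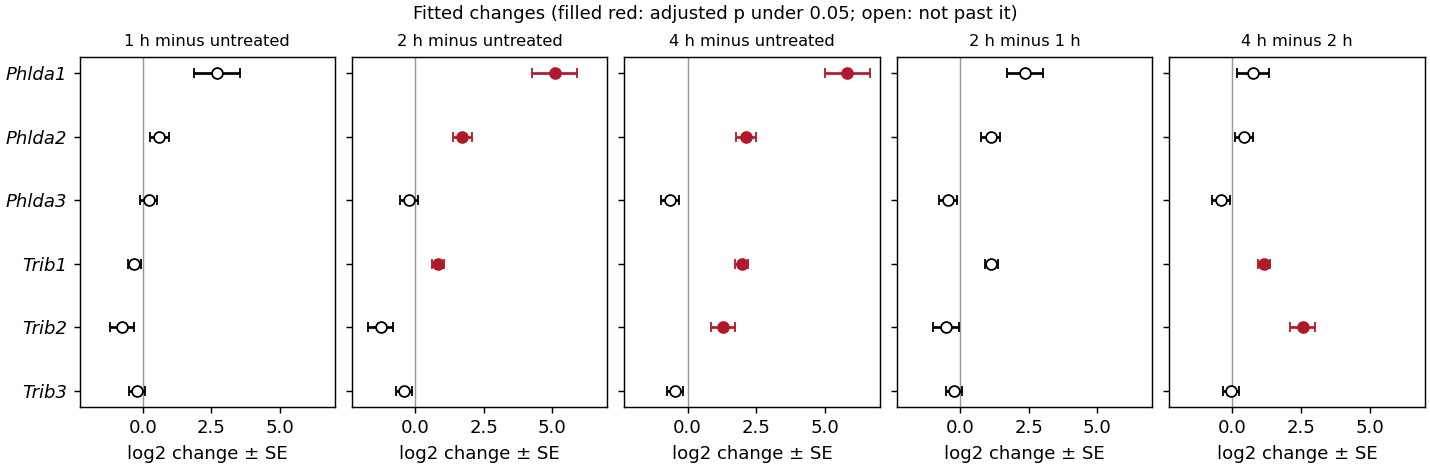
Log2 change ± SE of each gene in the 5 comparisons from the edgeR fit of 12 libraries, with filled red points for an adjusted p under 0.05 and open points for the others. No point is filled at 1 h or between 1 and 2 h, Phlda1, Phlda2 and Trib1 are filled at 2 h, Trib2 joins them at 4 h, and Trib1 and Trib2 are filled between 2 and 4 h.

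Counted over the 6 genes, edgeR called 0 at 1 h, where it called 0.0775% of all genes tested. At an unadjusted p under 0.05 there was 1 of 6 (Phlda1, higher), where 7.56% of all genes were higher. There were 1 in DESeq2 (0.719% of all genes called higher), 1 in the blocked fit (5.41%) and 0 in limma-voom, which called 6 of all 14185 genes. At 2 h 3 of 6 were higher, where 9.56% of all genes were, and 3 with the block, where 20.6% were. At 2 h 0 of 6 were lower (6.64% of all genes), against 1, Trib2, at an unadjusted p under 0.05 (16.4%), in DESeq2 (9.12%), in limma-voom (7.75%) and with the block (20%).

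At 4 h 4 of 6 were higher, where 18% of all genes were, and 4 with the block, where 26.2% were. At 4 h 0 of 6 were lower (15.1% of all genes), also at an unadjusted p under 0.05 (21.2%), against 1, Phlda3, with the block (25.7%). DESeq2 and limma-voom also called 0 of 6 lower, where they called 5107 and 4776 of all 14185 genes in either direction. Between 2 and 1 h 0 of 6 were called (0.0634% of all genes). There were 3, Phlda1, Phlda2 and Trib1, at an unadjusted p under 0.05 (9.13% higher), in DESeq2 (2.73% called higher) and with the block (7.13%). There were 0 in limma-voom, which called 0 of all genes. Between 4 and 2 h 2 of 6 were higher in both fits (3.27% of all genes, and 12% with the block). Counts of genes whose CPM did not overlap between groups and was higher were 2 of 6 at 1 h (10.9% of all genes), 3 at 2 h (19.1%), 4 at 4 h (22.8%), 3 between 2 and 1 h (13.1%) and 2 between 4 and 2 h (11.4%). The 3 comparisons with untreated cells share those 3 libraries.

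The clones differed in how far the 6 genes moved. At 4 h the largest change in log2 CPM was in clone b for 5 of the 6 genes and in clone c for Trib2, and the smallest was in clone a for 5 and in clone c for Phlda2. At 2 h clone b had the largest change for 5 genes and clone a the smallest for 5. The clone order over all tested genes was not counted, so it cannot be called particular to these 6. Clone b also had the most reads assigned to Esr1 and clone a the fewest. Whether those reads come from the construct, and their part in the size of the changes, was not tested.

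ERK feedback and immediate-early genes rose in the same libraries. Of 12 tested ERK feedback inhibitors 3 rose at 1 h, 9 at 2 h and 11 at 4 h, with median log2 changes of 0.33, 0.91 and 1.39. Among all genes edgeR called 0.0775% at 1 h, and 9.56% and 18% rose at 2 h and 4 h. At 4 h the phosphatase genes Dusp6 and Dusp4 rose by 2.65 ± 0.17 (edgeR adjusted p = 1.72e-05) and 4.21 ± 0.29 (edgeR adjusted p = 2.24e-05), and the inhibitor genes Spred1 and Spry2 by 1.64 ± 0.11 and 1.67 ± 0.14, also called. With the block 5 of the 12 rose at 1 h, where 5.41% of all genes did. Of 16 immediate-early genes 5 rose at 1 h (12 with the block), 12 at 2 h and 12 at 4 h, with medians of 1.66, 2.64 and 2.58. Among those named by rule, Myc rose by 2.41 ± 0.27, Ier2 by 1.33 ± 0.18, Junb by 3.40 ± 0.57 and Egr3 by 7.83 ± 1.14 at 4 h, all called by edgeR. Exons of Junb overlap another gene on the other strand.

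The AKT pathway genes were mixed. Of 24 tested, 0 were called at 1 h by edgeR (0.0775% of all genes), and 1 was higher with the block (5.41%). At 2 h 4 rose and 4 fell, where 9.56% and 6.64% of all genes did. At 4 h 5 rose and 7 fell, where 18% and 15.1% did, with a median of 0.16. With the block 9 rose and 8 fell at 2 h (20.6% and 20% of all genes), and 11 rose and 8 fell at 4 h (26.2% and 25.7%). The adaptor gene Irs2 rose by 2.05 ± 0.35 (edgeR adjusted p = 0.00152) and the catalytic subunit gene Pik3cd by 1.59 ± 0.20 (edgeR adjusted p = 3.85e-04). The AKT phosphatase gene Phlpp2 was at −0.92 ± 0.15 (edgeR adjusted p = 0.00104) and Foxo3, a transcription factor that AKT inhibits, at −1.004 ± 0.13 (edgeR adjusted p = 3.60e-04). Exons of Irs2 overlap a transcript of the other strand.

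Partners of the Tribbles proteins were called at shares near or below those of all genes. Of 13 tested, 0 were called at 1 h by edgeR (0.0775% of all genes) and 1 was higher with the block (5.41%). At 2 h 1 rose and 0 fell, where 9.56% and 6.64% of all genes did. At 4 h 2 rose and 1 fell, where 18% and 15.1% of all genes did, with a median of 0.07. With the block 3 rose and 1 fell at 2 h (20.6% and 20% of all genes), and 2 rose and 2 fell at 4 h (26.2% and 25.7%). Stk40, a Tribbles-like pseudokinase gene, rose by 1.56 ± 0.44 (edgeR adjusted p = 0.0197) and Dda1, a subunit of a COP1-related ligase, by 0.78 ± 0.17 (edgeR adjusted p = 0.00532). The scaffold gene Cul4a was at −0.65 ± 0.11 (edgeR adjusted p = 0.00142) and the ligase gene Smurf1 at −0.27 ± 0.10 (edgeR adjusted p = 0.0507). Cop1 was at −0.11 ± 0.09 at 4 h (edgeR adjusted p = 0.352) and Cebpb at 0.54 ± 0.53 (edgeR adjusted p = 0.46), both named after their values were seen. On the other strand, other genes overlap exons of Dda1 and Cebpb.

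**Figure D4:**
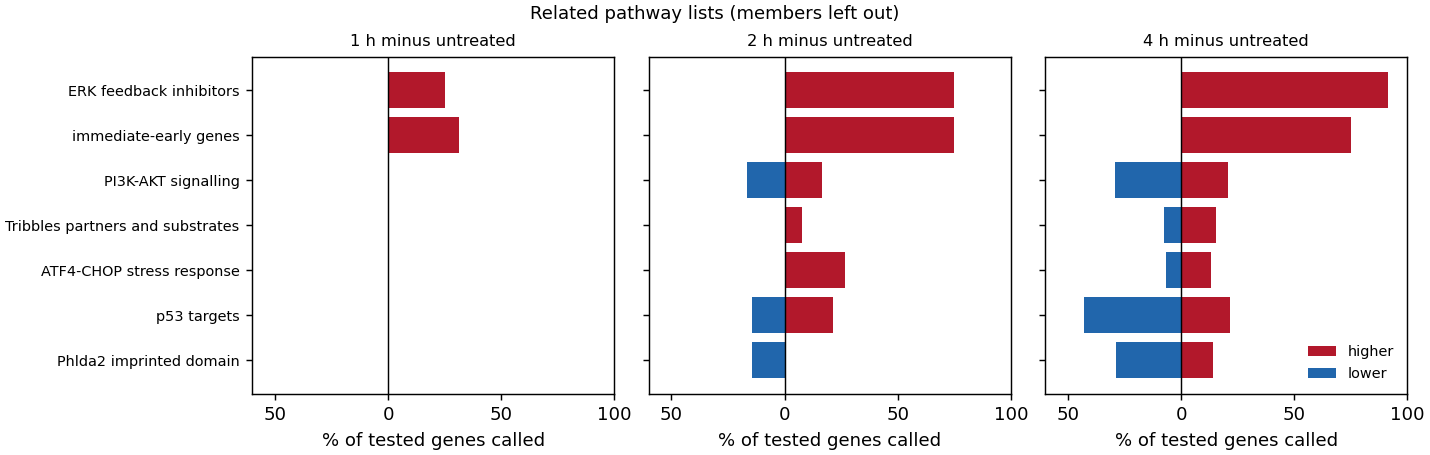
Share of the tested genes of each related list that edgeR called higher (red, to the right) or lower (blue, to the left), in percent, at 1, 2 and 4 h against untreated cells, without the 6 family genes. The ERK feedback and immediate-early lists have bars to the right only, up to 11 of 12 and 12 of 16 genes at 4 h. The AKT, Tribbles partner, ATF4 and CHOP, p53 and imprinted domain lists have bars on both sides at 4 h.

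The genes whose log2 CPM over the 12 libraries followed each family member most closely were picked from 11860 genes averaging at least 1 CPM. Pearson's r describes likeness over libraries that share clones and is given with no test. For Phlda1 they were Zfp36l2, an mRNA decay factor (0.992), Gpr1 (0.991) and Supt6, an elongation factor (0.988). For Phlda2 they were the tyrosine phosphatase gene Ptpn1 (0.992), the mitochondrial fission gene Fis1 (0.988) and Tmc6 (0.987), and for Phlda3 Ints3 (0.979), Mtfr1l (0.979) and the zinc transporter gene Slc30a2 (0.976). Trib1 was followed by the ubiquitin ligase gene Rnf128 (0.982), Gprc5c (0.981) and the transcription factor gene Sox4 (0.976), Trib2 by Lclat1 (0.96) and Gcnt4 (0.954), and Trib3 by Sema3b (0.96), Fndc10 (0.943) and Abhd16a (0.93). Of 18 picks in all, 6 were also picked by Spearman's rho and 4 by Pearson's r of values centred within clones, so most of the names depend on the measure. Lclat1, for example, averaged 10.4 ± 1.32, 9.25 ± 0.86, 8.04 ± 0.95 and 13.4 ± 1.38 CPM at 0, 1, 2 and 4 h (SD, n = 3 clones), lowest at 2 h and highest at 4 h as Trib2 was. Among the family, Phlda1 and Phlda2 were closest (r = 0.948), followed by Phlda2 with Trib1 (0.845) and Phlda3 with Trib3 (0.815), while Phlda1 and Trib2 were at 0.04.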

How the data were processed

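Total RNA depleted of ribosomal RNA was sequenced, per the labels' protocols. The deposited table holds unnormalized counts of reads by gene symbol, made by the authors. The submitters' processing notes name STAR, featureCounts, DESeq and mm10. Versions, annotation, strandedness and multi-mapping rules were not given in the sources used here. Column names give the time and clone of each sample. Within groups every pair of libraries differed beyond sampling noise (chi-square 19.2 to 107 times its degrees of freedom).

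Genes were kept with filterByExpr (minimum count 10, minimum total 15), counts were TMM-scaled, and edgeR 4.0.16 (R 4.3.3) fitted all 12 libraries by quasi-likelihood with the 4 groups as terms, leaving 8 residual degrees of freedom. P-values are 2-sided. Each SE was obtained from the log2 change and its F statistic. Log2 CPM used a prior count of 2. The fitting script was tested on simulated data. Alternatives were RLE factors, library totals, no filter, DESeq2 1.42.0, limma-voom (limma 3.58.1), the groups compared alone, a clone block, and leaving out each library or clone. The clone letter marks the same clone at all times: in 18 of 18 pairs from 1 clone, deviations from the group mean had r of 0.184 to 0.684. The main fit leaves this pairing out, so its spread also holds differences between clones. The biological coefficient of variation, the fitted spread between replicate libraries, was 0.163, and 0.0924 with the clone block. RefSeq and GENCODE M21 gave sequences, positions and lengths; 25532 symbols matched 1 GENCODE gene.

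The genes and lists were chosen with earlier results of these data known. Named were all 6 family genes, up to 4 genes of each list by smallest p at 4 h, and 3 genes per member by Pearson's r, of which 1 is not reported here. Of the lists, the partner list held 14 distinct genes.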

Additional observations from a re-analysis of the deposited data

Results flagged for a closer look

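Trib2 differed between 2 h and 4 h in 4OHT by a test of the difference itself (4 h minus 2 h, 2.55 ± 0.46 on the log2 scale, edgeR adjusted p = 0.0142, higher in 3 of 3 clones), and against untreated cells all 3 clones were lower at 2 h and higher at 4 h. Trib1 also differed between those times (1.15 ± 0.23, edgeR adjusted p = 0.02, higher in 3 of 3 clones). These calls were lost in 5 alternatives for Trib2 and 8 for Trib1, the fit of these groups alone among them. Untreated cells are labelled 0 h only, with none for 2 h or 4 h, so 4OHT and time alone cannot be told apart. Groups of 3 libraries are too small for a test of single outlying samples, and none was made.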

How the results depend on the processing

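With 3 clones a group, many calls rest on single libraries. The number of the 6 genes called at 1 h was 0. It was 1 (Phlda1) with clone as a replicate block, in DESeq2 and with the groups compared alone (992, 133 and 25 of all genes). At 2 h it was 3 and ran from 1 to 4 when 1 library was left out (338 to 3152 of all genes). It was 0 at 2 h without clone b or without clone c (97 and 1 of all genes). Between 2 h and 1 h it was 0, and 3 with the replicate block, in DESeq2 and without clone a. Between 4 h and 2 h it was 2, ran from 0 to 2 when 1 library was left out, and was 0 with the groups compared alone or without clone b or c. Over all times it was 4, and 2 without clone b and 0 without clone c. Those fits have fewer libraries, and the share of all genes they called over all times is not given here. The lost calls therefore cannot be read as particular to the 6 genes. At 4 h it was 4, and 3 to 5 in all alternatives. The replicate block changed no other call of the family genes than those given beside the results.

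Over 480 refitted changes of the 6 genes, 422 kept their direction and side of the threshold, 35 lost a call, 19 gained one and 4 changed sign, none of them called. Trib3 between 4 h and 2 h (−0.06) ran from −0.25 to 0.24 when 1 library was left out and was 0.0546 without clone b, and Phlda1 (0.75) ran from −0.0183 (without clone b at 4 h) to 1.19. All genes called were 11, 2298 and 4691 at 1, 2 and 4 h, 992, 5754 and 7374 with the block, and 133 at 1 h in DESeq2; without clone c they were 0, 1 and 919, and without clone b 0, 97 and 1913. Between 2 and 1 h they were 9, and 1785 with the block, 575 in DESeq2 and 0 in limma-voom, and between 4 and 2 h 664, 3115 with the block, 1395 in DESeq2 and 0 with those groups alone. With library totals in place of TMM the median of all genes shifted to −0.13 at 4 h. At 8 to 16 counts, untreated Phlda1 limits the precision of its folds.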
